A study of Homo sapiens with 7 samples.

Results

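The subtelomeric ends of the human autosomes are the outermost 2 Mb of sequence that the array covers on each chromosome arm. They were taken as all probes of chromosomes 1 to 22 whose midpoint lay within 2 Mb of the first probe of the chromosome (p end) or of its last probe (q end). The p ends of the 5 acrocentric chromosomes 13, 14, 15, 21 and 22 were left out, because their first probe lies next to the centromere and not next to a telomere. This gave 39 ends, 17 p and 22 q, with 5660 of the 161223 autosomal probes. Cut into pieces of the same width, chromosomes 1 to 22 gave 1352 segments, of which 1313 lay outside the ends. Each end is named by chromosome and arm, so that 3q is the outermost 2 Mb of the long arm of chromosome 3.

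K562, which derives from a chronic myeloid leukaemia, and U2OS, which derives from an osteosarcoma, were grown in standard culture with no other treatment or genetic change named. All cells took up bromodeoxyuridine, a thymidine analogue that marks new DNA, at 50 µM for 2 h, and 80000 cells were sorted by DNA content into fractions from early and from late S phase. New DNA of the early fraction was labelled with Cy3 and that of the late fraction with Cy5 on the same array, so that log2(early/late) above 0 means earlier replication than the array's median autosomal probe. For K562, 1 array followed the new cell sorting method and 1 the old. For U2OS, 2 arrays were labelled manual and 2 automated, with no word on the step this refers to. Nothing states that arrays of a line came from separate cultures, so a p-value measures the spread between these arrays, which may be technical. No slide held arrays of both lines, so cell line and slide cannot be told apart. A seventh array, K562 on a design labelled 44k, served only as an alternative.

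A chromosome is copied from many origins that fire in a set order through S phase. Gene-rich, open chromatin is usually copied early, and gene-poor, lamina-bound chromatin late. In yeast, origins next to telomeres fire late under the control of telomere-bound proteins such as Rif1. Human chromosome ends are more varied, since many of them are rich in genes while others carry long, tissue-restricted genes or repeated families.

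The probes below were chosen because they stand in the regions that carry the results: the latest end (3p), an early end (21q), and the stretches of 1q, 2p, 7q, 9p and 18p where the cell lines differed. Each is the designed probe as deposited, on genome build hg19, written as the file gives it, with CpG dinucleotides in capitals. The strand is not given. None of the probe sequences in the ends was carried by another probe name (0 of 5660).
3p, outermost probe, chr3:73914-73973: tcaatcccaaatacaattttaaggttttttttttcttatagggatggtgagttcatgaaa
21q, outermost probe, chr21:48090258-48090317: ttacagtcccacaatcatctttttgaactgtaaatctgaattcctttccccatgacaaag
1q, window without a gene name, chr1:248646717-248646776: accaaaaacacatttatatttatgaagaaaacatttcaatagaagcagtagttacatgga
1q, OR2T10, chr1:248756215-248756274: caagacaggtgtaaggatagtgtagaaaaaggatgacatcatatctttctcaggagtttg
2p, MYT1L, chr2:1848067-1848126: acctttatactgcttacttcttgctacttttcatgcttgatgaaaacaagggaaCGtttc
7q, VIPR2, chr7:158877695-158877754: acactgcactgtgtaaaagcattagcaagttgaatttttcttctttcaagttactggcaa
9p, DOCK8, chr9:340083-340142: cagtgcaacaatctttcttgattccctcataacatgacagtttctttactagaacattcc
18p, USP14 window, chr18:148963-149022: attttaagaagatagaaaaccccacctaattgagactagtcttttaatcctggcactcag
The probes shown are AT-rich. The 3p probe averaged -1.92 in K562 and -1.75 in U2OS, and the 21q probe 2.41 and 1.80. A single probe need not follow its end. Among other early ends, the outermost probe averaged -1.11 and -0.85 at 3q, -0.82 and -0.20 at 13q, and 1.43 and 0.39 at 7p. The DOCK8 probe averaged 1.96 in K562 and -1.17 in U2OS, so this single probe lies on opposite sides of the array median in the cell lines.

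The arrays differed in brightness. In the ends, the share of probes well above background (the scanner software's flag) in at least 1 channel was 92.3% and 71.1% for K562 (new, old), 85.7% and 73.4% for manual U2OS, and 98.9% and 99.1% for automated U2OS, against 94.9%, 81.5%, 88.8%, 81.6%, 99.5% and 99.6% in the rest. A total of 957 probe values in the ends had a deposited ratio of exactly 1, and neither channel was well above background in any of these 957. They made up between 0.053% and 6.41% of the end probes of an array, and a larger share in the ends than in the rest on all 6 arrays. After centring on the array median, such a value stood at -0.45 on K562 new sorting, 0.07 on K562 old sorting and -0.20 on U2OS manual 2. Such values pull a region toward that level, which differs between arrays. The early control gene of the protocol, BMP1, stood at 1.25 ± 0.58 in K562 (SD, n = 2) and 1.22 ± 0.48 in U2OS (SD, n = 4). The late control, DPPA2, stood at -1.72 ± 1.17 and -1.97 ± 0.27, which gives the scale for the values that follow.

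Most chromosome ends replicated early, and a minority replicated late in both cell lines. On all 6 arrays, 23 of the 39 ends lay above 0 and 12 lay below 0, while 4 ends (7q, 15q, 18p and 19q) had arrays on both sides. The mean over the ends was 0.15 ± 0.01 in K562 (SD, n = 2) and 0.28 ± 0.05 in U2OS (SD, n = 4). The mean over all other segments was -0.46 ± 0.35 and -0.36 ± 0.11, respectively. The median end stood at the 71.9 ± 1.6 percentile of all segments in K562 and at the 70.7 ± 4.5 percentile in U2OS. The q ends averaged 0.24 ± 0.02 in K562 and 0.38 ± 0.06 in U2OS, and the p ends 0.03 ± 0.06 and 0.16 ± 0.03.

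By the mean of the cell line means, the earliest ends were 3q, 13q, 21q and 7p. The order differed between the lines: in K562 alone 12p (1.20) lay above 3q and 5q (1.14) above 7p, and in U2OS alone 20q (1.26), 20p (1.24) and 8q (1.20) lay above 7p. End 3q, which carries 36 gene names, read 1.43 (new sorting) and 0.90 (old sorting) in K562 and 1.51, 1.69, 1.32 and 1.32 on U2OS manual 1, manual 2, automated 1 and automated 2. End 13q read 1.29 and 1.16 in K562 and 1.22, 1.34, 1.37 and 1.29 in U2OS, the narrowest range of these 4 ends. Its cell line means, 1.23 ± 0.09 and 1.30 ± 0.07, differed by -0.08 (95% interval -0.37 to 0.22). All 6 arrays of 13q lay above 1, close to the level of the early control gene. End 21q averaged 1.11 ± 0.12 in K562 and 1.22 ± 0.21 in U2OS, and end 7p averaged 1.14 ± 0.04 and 1.11 ± 0.24.

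By the same mean, the latest ends were 3p, 4q, 2p and 6p, although in U2OS alone 9p (-1.09), 1q (-1.03) and 11q (-0.83) lay below 2p. End 3p carries only 6 gene names, among them CHL1 and CNTN6, genes of neuronal cell adhesion molecules. It read -3.08 and -1.37 in K562 and -1.58, -2.06, -2.40 and -2.29 in U2OS. End 4q, whose outermost part is the facioscapulohumeral dystrophy region with FRG1, read -2.81 and -0.92 in K562 and -1.32, -1.29, -2.02 and -1.89 in U2OS. At both ends the K562 arrays differed from each other by more than the U2OS arrays did. End 6p, with the transcription factor genes IRF4 and FOXC1, averaged -1.41 ± 0.07 in K562 and -1.14 ± 0.25 in U2OS. End 2p averaged -2.17 ± 0.77 and -0.80 ± 0.09.

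The opposite ends of a chromosome were not always alike. Of the 17 chromosomes with both ends, 9 had a p end and a q end of opposite sign. This count was not compared with that for ends paired across chromosomes. Chromosome 3 held both the latest and the earliest of the 39 ends by the mean of the cell line means. On chromosome 2 the p end was late and the q end averaged 0.95 ± 0.11 in K562 and 1.09 ± 0.24 in U2OS.

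**Figure D1:**
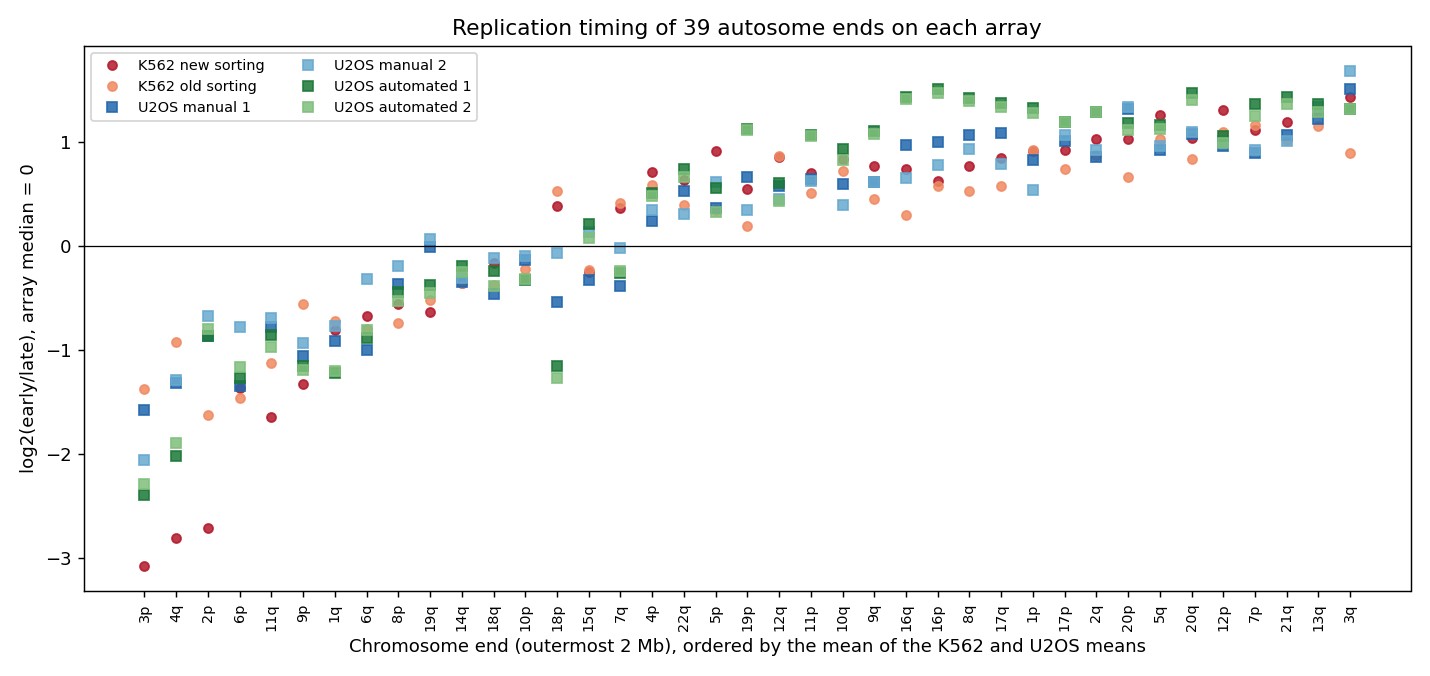
Mean log2(early/late) of each of the 39 chromosome ends (horizontal axis, ordered by the mean of the cell line means) on each of the 6 arrays, with K562 as circles and U2OS as squares. Values run from -3.08 at 3p to 1.69 at 3q, and 23 ends lie above 0 on all 6 arrays.

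Each end was set against the interior of its own chromosome. The mean difference over the ends was 0.57 (new sorting) and 0.24 (old sorting) in K562, and 0.25, 0.32, 0.54 and 0.48 in U2OS manual 1, manual 2, automated 1 and automated 2. It was 0.40 ± 0.23 in K562 (SD, n = 2) and 0.40 ± 0.13 in U2OS (SD, n = 4), above 0 on all 6 arrays. Without background correction these means fell to 0.15 and 0.19. The median over the ends was 0.59 in K562 and 0.42 in U2OS, beside -0.07 and -0.08 over all segments.

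In U2OS, 22 ends (56.4%) were earlier than the interior of their chromosome and 10 (25.6%) later, at a limma adjusted p under 0.05, and 7 passed neither way. Over all segments, 40.8% were earlier and 43.8% later. In K562, 21 ends (53.8%) were earlier and 9 (23.1%) later, beside 36.4% and 41.1% of all segments. These are not separate tests of each line, because the arrays of both lines were fitted together with a shared spread per segment. The U2OS calls therefore also depend on the gap between the K562 arrays, and the K562 calls lean on the U2OS spread. With loess normalization the K562 count fell to 11 earlier, with normexp correction to 13 and without background correction to 9. In both cell lines 19 ends were earlier and 9 later, and no end (0) was earlier in one line and later in the other. The joint shares over all segments were not computed, so these counts are not shown to be particular to the ends.

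End 13q had the largest positive difference from its chromosome in both lines, 1.90 in K562 (adjusted p = 0.000206) and 1.92 in U2OS (adjusted p = 1.85e-05). End 8q stood 1.33 above its chromosome in K562 and 1.84 in U2OS, and end 5q 1.79 and 1.48. End 3p was the furthest below its chromosome in U2OS, by -1.76, and stood at -1.82 in K562. End 19q lay below its chromosome by -1.04 in K562 and -0.72 in U2OS. It is a cluster of zinc finger genes on an otherwise early chromosome. End 22q was late relative to its chromosome in U2OS (-0.40, adjusted p = 0.00414), although its own level was above 0 on every array (0.31 to 0.74).

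The level changed with distance from the end. In K562 the mean over the 39 ends was 0.36 ± 0.09 in the outermost 250 kb, 0.36 ± 0.03 from 0.5 to 0.75 Mb, and -0.21 ± 0.08 from 1.75 to 2 Mb. In U2OS it was 0.21 ± 0.12, 0.35 ± 0.04 and 0.08 ± 0.07 at the same distances. The outermost Mb exceeded the next Mb by 0.46 and 0.28 on the K562 arrays. On the U2OS arrays that difference was 0.00, 0.13, 0.02 and -0.03, so the K562 values lie above all 4 U2OS values; with normexp correction the K562 mean of 0.37 fell to 0.21. In K562, 25 of the 39 ends lay above the 2 Mb next to them, with a median difference of 0.23. In U2OS, 21 did, with a median of 0.05.

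**Figure D2:**
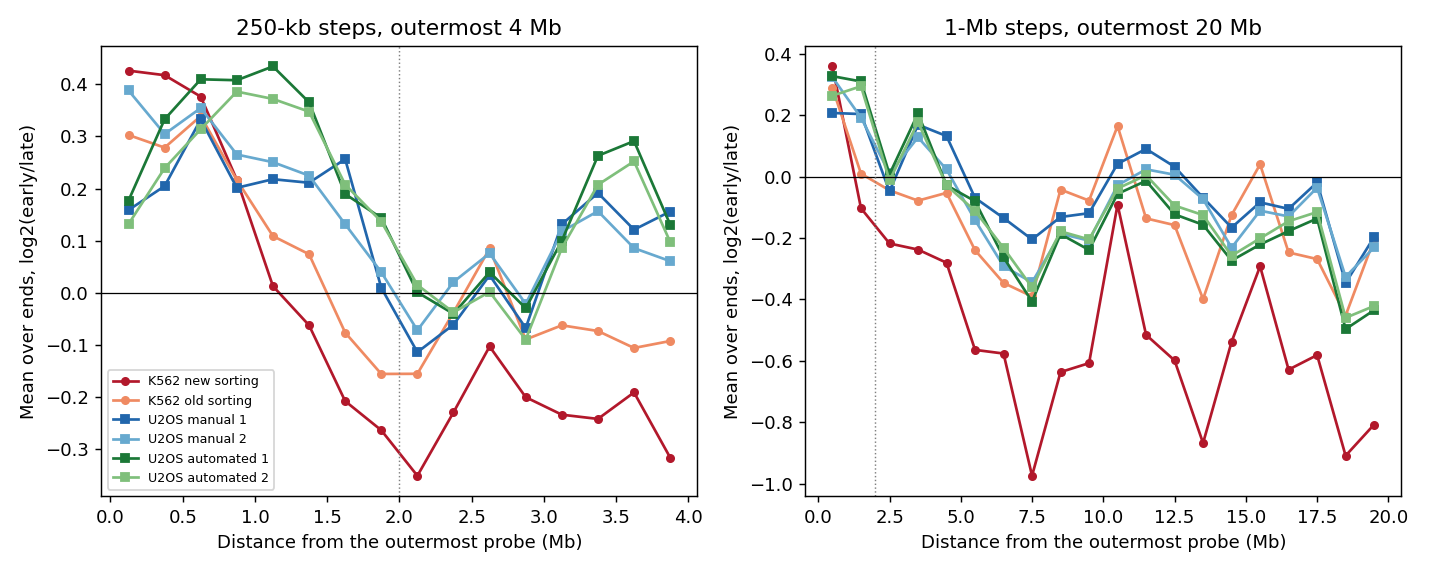
Mean log2(early/late) over the 39 ends (vertical axis) by distance from the outermost probe in Mb, in steps of 250 kb (left) and 1 Mb (right), with a line for each array and a dotted line at 2 Mb. The K562 lines fall from 0.43 and 0.30 in the outermost step to -0.26 and -0.16 just inside 2 Mb.

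The cell lines gave nearly the same order of ends. Across the 39 ends the K562 and U2OS means correlated with r = 0.91 and rho = 0.87, beside 0.82 and 0.81 across the 1313 other segments; ends and segments are not independent replicates. K562 was later at 2p and earlier at 7q, and these were the only ends past an adjusted p of 0.05 in limma (5.13% of the ends, beside 26.3% of all segments, 10.3% earlier and 16.0% later in K562). At an unadjusted p under 0.05 there were 7 ends. The share of all segments at that threshold was not computed, so this count has no background to be read against. The arrays of the lines did not overlap at 16 ends, 41.0% beside 47.0% of all segments, with K562 above at 5 and below at 11. The median difference was -0.14 over the ends and -0.08 over all segments.

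End 2p read -2.71 and -1.63 in K562 and -0.86, -0.67, -0.86 and -0.80 in U2OS, without overlap. The difference was -1.37 ± 0.29 (standard error, adjusted p = 0.0204), and without K562 new sorting it was -0.83 (adjusted p = 0.00845). End 7q read 0.37 and 0.41 in K562 and -0.39, -0.02, -0.26 and -0.24 in U2OS, a difference of 0.62 ± 0.14 (adjusted p = 0.026). The calls at both ends changed with single U2OS arrays, while the differences stayed about as large. Leaving out manual 1, automated 1 or automated 2 gave -1.39, -1.39 and -1.37 at 2p (adjusted p = 0.0551, 0.0575 and 0.0591) and 0.56, 0.61 and 0.61 at 7q (adjusted p = 0.0657, 0.0812 and 0.0828). Leaving out manual 2 gave -1.32 at 2p (adjusted p = 0.0573). The background step changed both the calls and the sizes. With normexp correction the differences were -0.87 (adjusted p = 0.157) and 0.28 (adjusted p = 0.441), with loess -0.80 (adjusted p = 0.237) and 0.44 (adjusted p = 0.203), and with no background correction -0.58 (adjusted p = 0.244) and 0.29 (adjusted p = 0.534). With slide as a random block 7q kept a difference of 0.62 with an adjusted p of 0.216. With ends of 1 Mb 2p had -0.85 (adjusted p = 0.0763) and 7q 1.54 (adjusted p = 0.00881), with medians of probes 7q had 1.01 (adjusted p = 0.00766), and with ends of 5 Mb 2p had -0.59 and 7q 0.49 (adjusted p = 0.153 and 0.0663).

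End 18p, chosen after its values were seen, read 0.38 and 0.53 in K562 and -0.54, -0.07, -1.16 and -1.27 in U2OS. It had the widest spread among U2OS arrays of the ends named here, with both automated arrays below both manual ones. The difference of 1.21 ± 0.36 had an adjusted p of 0.0524 and did not pass. Leaving out single arrays gave 1.04 (without automated 2, adjusted p = 0.106) to 1.44 (without manual 2, adjusted p = 0.0261), and only the latter of the 6 passed. It was 0.73 with normexp (adjusted p = 0.296), 0.92 with loess (adjusted p = 0.189), 0.62 with no background correction (adjusted p = 0.367) and 0.66 with ends of 5 Mb (adjusted p = 0.134). It passed without dim probes, with scaling, with mean centring, with medians and with the 44k array (adjusted p = 0.0269, 0.0345, 0.0125, 0.0142 and 0.0156). Measured against its own chromosome, 18p differed between the lines by 1.54 ± 0.31 (adjusted p = 0.00878), 2p by -1.34 ± 0.21 (adjusted p = 0.00313) and 7q by 0.74 ± 0.19 (adjusted p = 0.0249), beside 29.4% of all segments called. The K562 array labelled 44k read -1.61 at 2p, 0.46 at 7q and 0.57 at 18p, on the K562 side at all 3 ends.

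**Figure D3:**
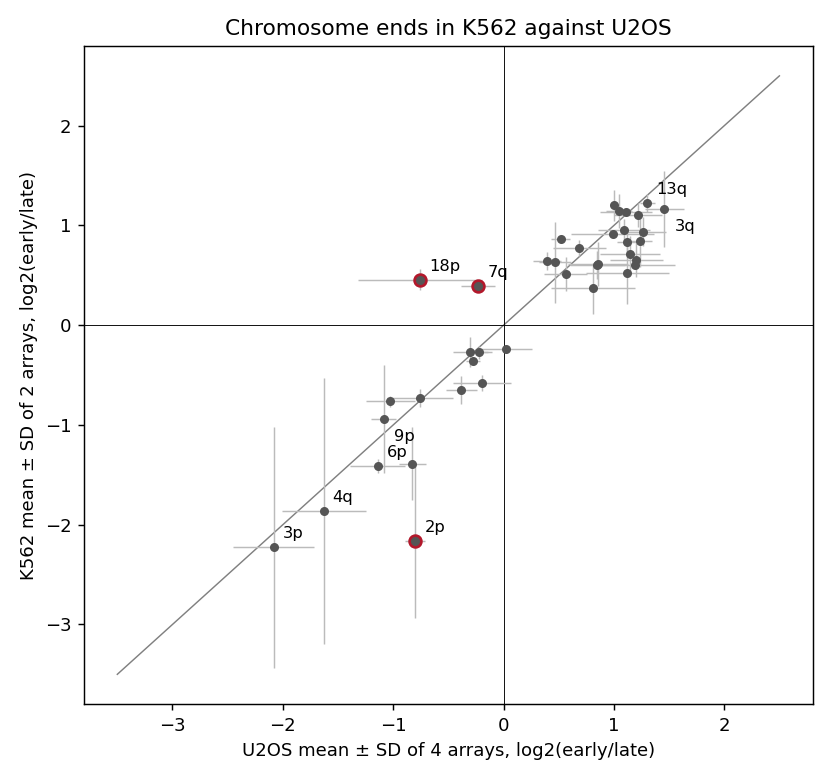
K562 mean (vertical axis, SD of 2 arrays) against U2OS mean (horizontal axis, SD of 4 arrays) of log2(early/late) for the 39 ends, with the line of equal values. Ends 2p, 7q and 18p, in red, have differences of -1.37, 0.62 and 1.21.

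At finer scale the ends held 765 windows of 100 kb. In both lines 472 windows (61.7%) were early and 212 (27.7%) late, and 81 (10.6%) had lines of opposite sign. In the rest of the genome these shares were 38.5%, 43.2% and 18.3%. K562 and U2OS differed by at least 1 at an adjusted p under 0.05 in 99 windows, 12.9% beside 21.2% of all windows. K562 was earlier in 45 (beside 9.06% of all windows) and later in 54 (beside 12.2%). The 99 windows lay in 26 ends, and in 53 of them the line means had opposite signs. The counts moved with single arrays: the later count was 87 without K562 old sorting, 31 without U2OS automated 1 and 25 without automated 2, and the earlier count was 29 without automated 2. Without background correction 6 windows were earlier and 0 later.

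End 2p held 9 called windows, all later in K562, and all but 2 of them lay more than 1 Mb from the end. The outer part was late in both lines. From 0 to 1.25 Mb the 250-kb steps ran from -2.47 to -1.91 in K562 and from -1.41 to -1.23 in U2OS. Further in, U2OS rose to 0.23 between 1.5 and 1.75 Mb while K562 stayed at -1.75. The window chr2:1700001-1800000 holds PXDN, the gene of the extracellular matrix peroxidase peroxidasin, and differed by -2.13 ± 0.31 (adjusted p = 0.00249). In the window chr2:1800001-1900000, which holds MYT1L, a neuronal transcription factor gene, the arrays read -2.63 and -1.10 in K562 and 0.33, -0.17, 0.44 and 0.86 in U2OS, a difference of -2.23 ± 0.46 (adjusted p = 0.0115), and -1.46 without K562 new sorting (adjusted p = 0.0302). The MYT1L window lost its call with normexp (adjusted p = 0.0574), with loess (adjusted p = 0.0746) and with no background correction (adjusted p = 0.0787), where PXDN had 0.0507.

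End 18p held 8 called windows, all earlier in K562. They formed an outer group with USP14, a deubiquitinase gene of the proteasome, and THOC1, a gene of the mRNA export complex THO, and an inner group from 1 to 1.6 Mb with C18orf2. Between these groups both lines were early: from 0.5 to 0.75 Mb K562 averaged 1.60 and U2OS 0.74. The window chr18:100001-200000 with ROCK1P1 and USP14 read 0.76 and 0.88 in K562 and -1.64, -0.90, -2.39 and -1.99 in U2OS, a difference of 2.55 ± 0.41 (adjusted p = 0.00384). In all 8 windows the K562 mean was above 0 and the U2OS mean below 0.

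In 7q, the 6 called windows lay in the outer Mb and were all earlier in K562. They hold PTPRN2, a receptor phosphatase gene of secretory vesicles, NCAPG2, a condensin II subunit gene, ESYT2, a gene of contacts between endoplasmic reticulum and plasma membrane, WDR60, a dynein-2 gene, and VIPR2, a receptor gene for vasoactive intestinal peptide. From 0.5 to 0.75 Mb K562 averaged 1.69 and U2OS -0.01. From 1.25 to 1.5 Mb both were late, at -1.67 and -0.77, and from 1.75 to 2 Mb both were early, at 1.29 and 0.73. PTPRN2 runs through several of these zones, so its average over 91 probes, -0.31 ± 0.11 in K562 and -0.40 ± 0.22 in U2OS, hides them.

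End 9p, which was not among the ends named by rule, held a difference between the lines that the 2-Mb average did not show. It was not alone in this. Ends 6q and 15q differed by 0.02 and -0.26 as a whole and held 8 called windows each, in both directions. End 9p as a whole was late, at -0.94 ± 0.54 in K562 and -1.09 ± 0.12 in U2OS, with a difference of 0.15 (95% interval -0.41 to 0.71). In its outermost 250 kb, however, the K562 arrays read 1.56 and 1.44, and the U2OS arrays -0.63, -0.39, -1.07 and -1.20. From 1.25 to 1.5 Mb the new-sorting K562 array read -3.68, whereas the old-sorting array, at -1.80, lay within the U2OS range of -1.98 to -1.58. From 1.75 to 2 Mb the lines averaged -0.71 and -0.90. The early K562 stretch coincides with DOCK8, a gene of a guanine nucleotide exchange factor that acts in immune cells, and reaches KANK1, a gene of a cytoskeletal adaptor. All 3 windows that hold DOCK8 were called, with differences of 2.27, 2.48 and 2.03 (adjusted p = 0.00357, 0.00172 and 0.00351).

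In 1q, an end of olfactory receptor and zinc finger genes, the window chr1:248600001-248700000 without a gene name read 1.03 and 0.63 in K562 and -1.51, -1.34, -2.36 and -2.41 in U2OS. The difference of 2.74 ± 0.39 (adjusted p = 0.00231) was the largest in the ends. The neighbouring window chr1:248700001-248800000 with the olfactory receptor gene OR2T10 differed by 2.56 ± 0.30 (adjusted p = 0.00118). The end as a whole was late in both lines, at -0.76 ± 0.06 in K562 and -1.03 ± 0.22 in U2OS.

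**Figure D4:**
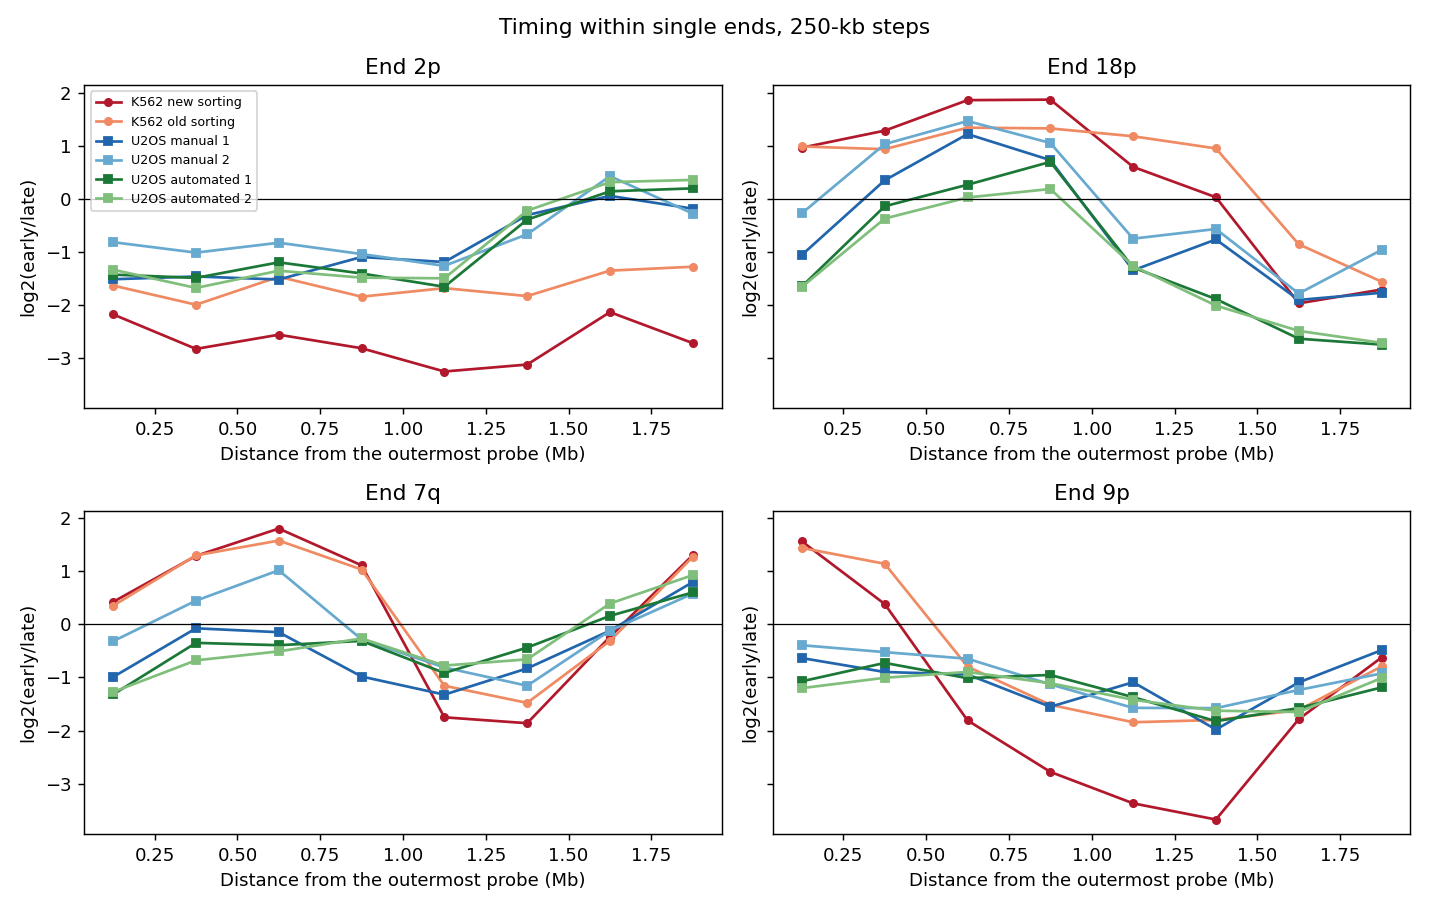
Mean log2(early/late) in steps of 250 kb (vertical axis) by distance from the outermost probe in Mb within ends 2p, 18p, 7q and 9p, with a line for each array. At 9p the K562 lines start at 1.56 and 1.44 and fall below 0 further in, and at 2p the U2OS lines rise above 0 where K562 averages -1.75.

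Genes were read as the mean of their probes, from a fit over all 23745 gene names of chromosomes 1 to 22 that was added after the segment and window results were known. The ends carried 1316 gene names, some of which are transcript identifiers and not gene symbols. K562 was earlier at 29 (2.20%, beside 5.03% of all genes) and later at 38 (2.89%, beside 6.76%). Without K562 new sorting these counts were 8 and 16, without old sorting 12 and 17, without U2OS automated 1 18 and 21, and without automated 2 13 and 21. Many of the called names rest on 1 probe, such as VN1R1 at 19q and PDYN at 20p. The called genes with 3 or more probes, chosen after their values were seen, included ABCA11P and ZNF141 at 4p, earlier in K562 by 2.45 and 1.71. At 15q LASS3, a ceramide synthase gene, and ASB7 were later in K562 by -1.52 and -1.31, and at 20p SIRPA, the gene of the CD47 receptor, by -1.70. At 19q the zinc finger genes ZNF264 and ZNF805, with 2 probes each, were later by -1.84 and -2.15.

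Among the listed telomere maintenance genes, TERT at 5p, the reverse transcriptase of telomerase, read 1.07 and 1.14 in K562 and -0.08, 1.57, 1.09 and 0.58 in U2OS over 2 probes. RTEL1 at 20q, a helicase that resolves telomeric loops, read 0.55 and 0.09 in K562 and 1.30, 1.28, 0.53 and 1.64 in U2OS. Both were early in both lines on average, neither passed the test between lines (adjusted p = 0.74 and 0.207), and the U2OS arrays spread widely. Of the alpha globin list, 4 of 9 genes carried a probe in the end, and NPRL3, LUC7L and AXIN1 were early in both lines. NPRL3, which houses the main globin enhancers, averaged 0.74 ± 0.43 in K562 and 1.23 ± 0.19 in U2OS. RHBDF1 had 1 probe, with neither channel well above background on 3 arrays, both K562 arrays among them, where its deposited ratio was exactly 1. The globin genes HBZ, HBM, HBA1, HBA2 and HBQ1 are not among the probe names of the end.

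Of the genes tied to terminal deletions and to the facioscapulohumeral region, 14 of 15 carried probes, 7 were early in both lines and 5 late in both. EHMT1 at 9q, a histone methyltransferase gene, averaged 1.27 ± 0.15 in K562 and 0.94 ± 0.42 in U2OS. SHANK3 at 22q, a synaptic scaffold gene, averaged 0.90 ± 0.08 and 1.36 ± 0.53, and YWHAE at 17p, a 14-3-3 protein gene, 0.94 ± 0.23 and 1.22 ± 0.30. On the late side, CHL1 at 3p averaged -2.28 ± 0.77 and -1.69 ± 0.49, and FRG1 at 4q, on 1 probe, -1.98 ± 0.58 and -1.43 ± 0.70.

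DOCK8 was the 1 called gene of the 45 found in all lists. Over 19 probes it read 1.56 and 1.48 in K562 and -0.68, -0.41, -1.03 and -1.14 in U2OS, so every K562 array was early and every U2OS array late. The difference was 2.33 ± 0.33 (adjusted p = 0.00434). Leaving out any single array kept the call, with adjusted p from 0.00907 to 0.0404. With normexp correction the difference was 1.46 (adjusted p = 0.0218). With loess it was 1.31 (adjusted p = 0.0502) and with no background correction the adjusted p was 0.0619.

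Of the growth control and cancer genes, 11 of 12 were found, 7 early and 2 late in both lines by their means. Of the 2 late genes, IRF4 rests on 1 probe that read -2.24, 0.38, 0.31 and 0.79 in U2OS, so its U2OS mean of -0.19 comes from manual 1. NOTCH1 at 9q averaged 0.98 ± 0.44 in K562 and 1.02 ± 0.17 in U2OS, and FANCA at 16q, of the Fanconi DNA repair pathway, 0.94 ± 0.86 and 1.42 ± 0.49. FOXC1 at 6p, also on 1 probe, was late on all 6 arrays, from -1.24 to -0.03. Of the 7 genes of the neuronal list, 1 (CHRNA4 at 20q, on 1 probe) was early and 4 were late in both lines by their means. MYT1L is among these 4 with a U2OS mean of -0.02, from arrays on both sides of 0 (-0.27, -0.32, 0.18 and 0.34). CNTN6 at 3p averaged -2.45 ± 1.41 and -2.23 ± 0.31, and ADARB2 at 10p, over 42 probes, -0.57 ± 0.20 and -0.78 ± 0.13. The median level of this list was -0.31 in K562 and -0.35 in U2OS. Of all genes in the ends, 74.7% were early in K562 and 79.9% in U2OS, which is a share and not a level.

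Of the housekeeping list, 7 of 9 were found, with 5 early in both lines. KDM5A at 12p, a histone demethylase gene, averaged 1.32 ± 0.48 and 1.04 ± 0.37, and POLE at 12q, the leading-strand DNA polymerase gene, 0.84 ± 0.11 and 0.90 ± 0.31. ACP1 at 2p, a phosphatase gene of all tissues, was late on every array over its 1 probe, from -2.74 to -1.03. The zinc finger genes with names starting in ZNF numbered 74, in 11 ends. They were divided, with 26 early and 24 late in both lines. The single probes of PDCD1, EEF1A2 and DVL1 had neither channel well above background on 2, 3 and 5 of the 6 arrays, respectively, and the deposited ratio there was exactly 1.

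**Figure D5:**
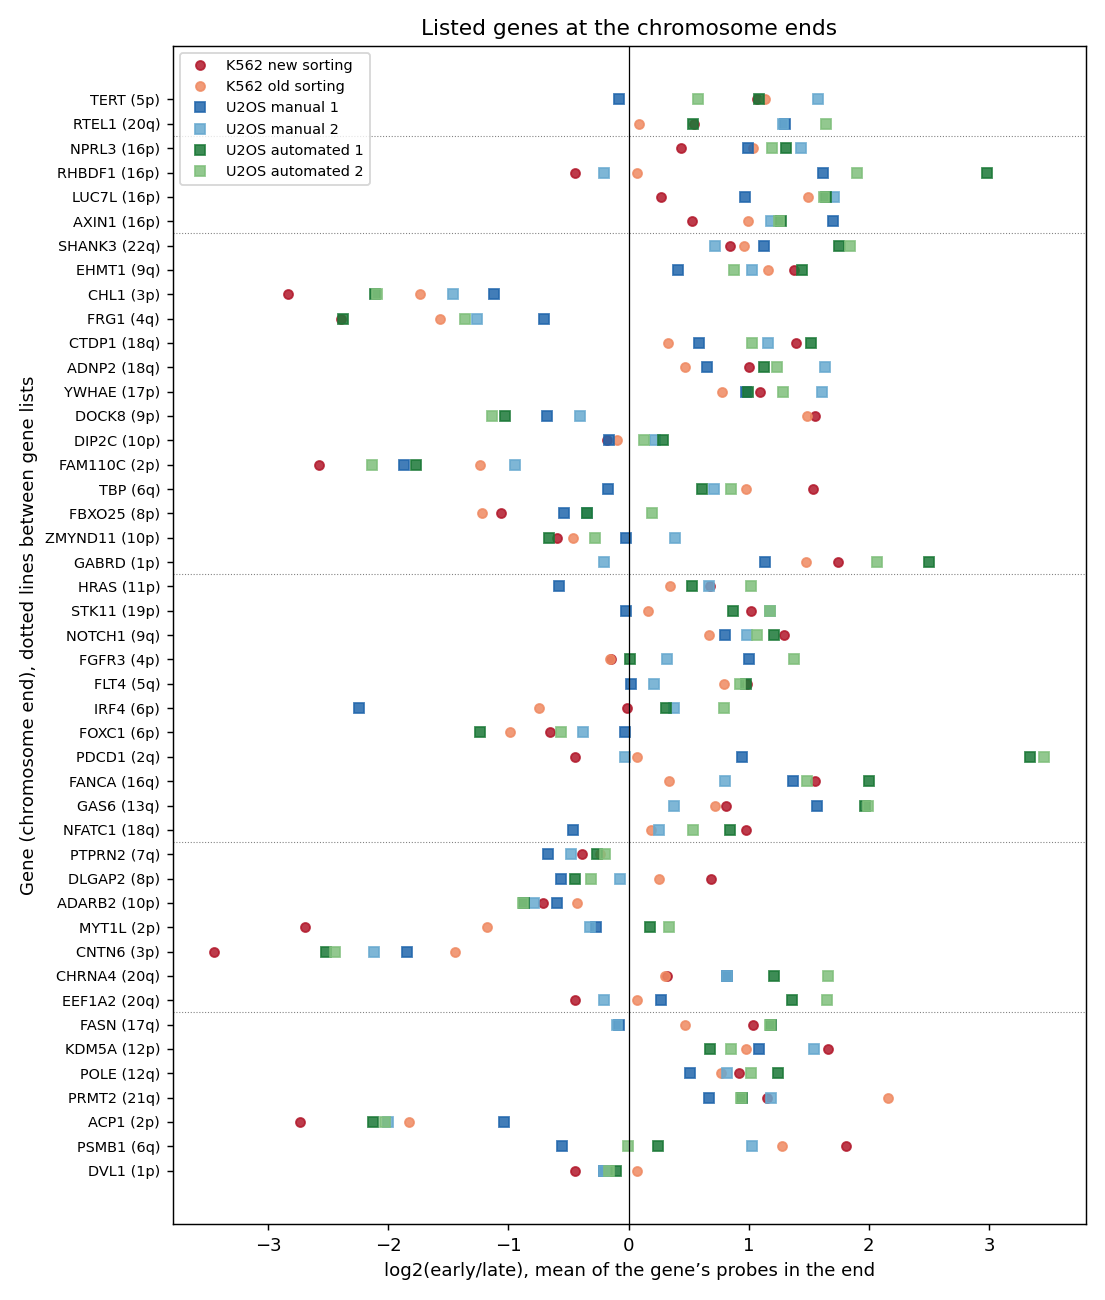
Mean log2(early/late) of the probes of each of the 45 listed genes found in an end (vertical axis, with the end in brackets) on each of the 6 arrays, with dotted lines between the lists. DOCK8 is early on both K562 arrays (1.56 and 1.48) and late on all 4 U2OS arrays (-1.14 to -0.41).

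Most ends were rich in gene names, which their selection did not use. They held a median of 32 gene names per 2 Mb (6 to 78), beside a median of 14 in the rest, while 3p, 4q, 6p, 7q, 9p and 10p lay below that median with 6 to 13. Across the 39 ends the level followed the number of gene names with rho = 0.48 in K562 and 0.67 in U2OS, beside 0.73 and 0.77 across the rest. The median probe GC content was 36.9% in the ends beside 36.4% in the rest, and CpG dinucleotides per probe were 0.60 beside 0.41. The level also followed probe GC content, with rho = 0.47 in K562 and 0.61 in U2OS across the ends, beside 0.36 and 0.42 across the rest. In the 29 ends with probe GC between 36 and 38% the median level was 0.63 in K562 and 0.47 in U2OS, beside -0.36 and -0.23 in 1161 other segments of that range. The other ranges were thinly filled and mixed. From 38 to 40%, 7 ends had 0.61 and 0.99, beside 0.80 and 0.84 in 11 segments, and from 34 to 36%, 3 ends had -0.76 and -1.03, beside -1.15 and -0.87 in 135 segments.

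The automated and manual U2OS arrays differed at 20 of the ends. Automated arrays were earlier at 14 ends (35.9%, beside 7.62% of all segments) and later at 6 (15.4%, beside 37.2%), at an adjusted p under 0.05. All 14 ends that were earlier on automated arrays had a U2OS mean above 0, and 5 of the 6 later ends had a mean below 0. End 18p had the largest difference, -0.91 ± 0.13 (adjusted p = 8.16e-05). End 1p read 0.83 and 0.54 on manual and 1.32 and 1.28 on automated arrays, a difference of 0.62 ± 0.11. The automated arrays were also the brighter ones, with 98.9% and 99.1% of end probes well above background beside 85.7% and 73.4%. The part of brightness in these differences was not tested. After leaving out dim probes 0 ends were earlier and 6 later, whereas with normexp and with loess both counts were larger than in the main fit. Without automated 1 the earlier count was 4, without automated 2 the counts were 8 and 3, and without manual 1 the later count was 12. Both manual arrays lay on 1 slide and the automated arrays on others, so handling and slide cannot be told apart.

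Between the K562 sorting methods, with 1 array each and no replicate check, the new method read above the old at 25 ends and below at 14. The difference exceeded 0.5 in either direction at 7 ends. At 4q it was -1.88, at 3p -1.71, at 2p -1.08, at 9p -0.77 and at 11q -0.52, and at 5p 0.57 and at 3q 0.54. The first 5 of these ends are late and the other 2 early. The late ends 6p, 6q and 8p read higher with the new method, by 0.10, 0.13 and 0.19. The SD over the 39 ends was 1.19 with the new and 0.80 with the old method, and over the rest 1.52 and 0.89.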

How the data were processed

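Per the file headers, each array was scanned with Agilent Feature Extraction 11.5.1.1 and its comparative genomic hybridization protocol. The submitters' processing notes name version 9.1. The deposited log10 ratio (Cy5 late over Cy3 early) comes, per the file headers, from background-subtracted, dye-normalized signals. The deposited intensity columns (spot mean and local background) are raw, per the file headers, and served the alternatives. The flags deposited by the authors' software marked non-uniform or manually excluded spots, which were dropped.

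The log ratio was turned to log2(early/late), probes were averaged by name, and each array was centred on its median autosomal probe. No within-array curve was fitted, since most probes carry signal. Normexp with an offset of 50, which pulls dim arrays toward 0, was an alternative. Probes were averaged in 2-Mb segments (at least 20 probes) and 100-kb windows (at least 3). Segments, windows and gene names were fitted with limma 3.58.1 (lmFit, eBayes) in R 4.3.3, with Benjamini-Hochberg adjustment over all of them. Ranges called 95% intervals are limma's, unadjusted. Of 1316 gene names, 811 were current symbols and 138 older ones in RefSeq.

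On simulated data, 70% of 200 segments shifted by 1 were recovered for K562 against U2OS among 1352, 72.5% of windows shifted by 2 among 22918, and 100% of segments shifted by 1 for automated against manual. Named were the 4 earliest and 4 latest ends, up to 3 called ends and 3 called windows per direction with the largest differences and no overlap, and listed genes; 1 of these windows is not reported here. Members and lists were chosen with earlier results of these data known. The gene fit was added later. Alternatives were other background steps, loess, dim-probe and scaling choices, mean centring, other widths, medians, the array labelled 44k, slide and replicate blocks, and leaving out each array. The number of arrays limits the precision. All arrays have the same dye orientation, so dye effects cannot be told apart from timing.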

Additional observations from a re-analysis of the deposited data

Results flagged for a closer look

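The difference between an end and the interior of its chromosome was tested for a difference between K562 and U2OS, and 3 ends passed an adjusted p of 0.05 in limma. At 2p it was lower in K562 (-1.34), at 7q higher (0.739) and at 18p higher (1.54). Dixon's outlier test flagged no U2OS array as apart from the other 3 (0 of 43 values tested, at the 95% level). The values were those of each end and summaries over the ends. With 4 arrays the test flags only a wide gap to a single array, and not a split into 2 manual and 2 automated arrays.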

How the results depend on the processing

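Of the counts and means over the ends, 151 values under an alternative kept their direction and stayed within the tolerance, 80 moved and 1 reversed. The cause of these changes was not tested. The tolerance was the SD between arrays for a mean and a fixed ratio for a count. The mean of new minus old sorting had no tolerance. Some of the 151 values could not move: a mean of one line does not use the arrays of the other, and mean centring cancels in end minus chromosome. The U2OS mean of end minus chromosome was 0.229 with normexp, 0.187 with no background correction and 0.235 with loess, and 0.352 to 0.445 leaving out single arrays; the K562 mean was 0.15 with no background correction, and 0.243 to 0.566 leaving out single arrays. The K562 count of earlier ends was 13 with normexp, 9 with no background correction and 11 with loess. Leaving out arrays gave 20 to 25 earlier and 9 to 13 later ends in U2OS, and 17 to 22 and 8 to 9 in K562.

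The ends called between the lines (earlier, later in K562) were 0 and 0 with normexp, with no background correction and with loess, 3 and 3 without dim probes, 2 and 4 with scaling to the same MAD, 2 and 1 with mean centring, with medians and relative to the interior, 4 and 0 with ends of 1 Mb, 0 and 3 with 5 Mb, 0 and 1 with slide as a random block, 2 and 3 with the 44k array, and 0 to 2 and 0 to 4 leaving out arrays. The called windows were 13 and 20 with normexp, 6 and 0 with no background correction, 20 and 2 with loess, 106 and 171 with ends of 5 Mb, 22 and 18 in 250-kb windows, and 29 to 58 and 25 to 87 leaving out arrays. The later count was 12 with ends of 1 Mb and 33 with the slide block. The called genes were 12 and 16 with normexp, 1 and 5 with no background correction, 14 and 7 with loess, and 8 to 31 and 16 to 53 leaving out arrays.

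The ends called between automated and manual arrays (earlier, later) were 22 and 10 with normexp and with loess, 0 and 6 without dim probes, 18 and 3 with mean centring, and 4 to 15 and 3 to 12 leaving out arrays. The deviations of same-numbered arrays correlated at -0.17, so the shared numbers were not taken as pairs: with the replicate block the counts were 13 and 5, with the replicate block and scaling 13 and 6, and with the crossed replicate block, chosen after seeing the data, 14 and 6. The K562 excess of the outermost Mb was 0.211 with normexp. The mean of new minus old sorting was -0.02, reversed to 0.047 with normexp and moved to -0.066 with scaling. For the slide block, limma's consensus correlation was computed per feature with statmod, since only 1 slide held more than 1 array. With 1 K562 array left out, the remaining one is assumed to vary like U2OS. Leaving out an array of either line also changes the spread shared by the lines, and so can change the calls of the other line. The mean of that other line stays the same.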
